A study of Homo sapiens with 24 samples.

Results

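Glutathione and thioredoxin genes were followed through the RNA-seq counts of 2 human cancer cell lines. They were the rows whose symbol was GCLC, GCLM, SLC7A11, GSR, GPX2, GPX4, TXN, TXNRD1, SRXN1 or PRDX1, and all 10 were found among the 28307 genes counted. SUM159 is a breast cancer line and SW620 a colon cancer line. Cells were kept adherent for 30 h under the nitrofuran antibiotic Nifuroxazide (NIF) or its vehicle DMSO, and were sorted after the treatment, not before it. The ALDEFLUOR assay, which reads aldehyde dehydrogenase activity, separated ALDHbr cells (bright, labelled as cancer stem cells) from ALDHneg cells (labelled as non-stem). This gave 8 groups of 3 libraries: ALDHbr and ALDHneg cells of each line, each under DMSO and under NIF, and the submitters describe the replicates as independent biological experiments. The final NIF concentration is not given in the sources used here. Each line is represented by its own cultures only, so that line and experiment cannot be told apart.

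Glutathione, a tripeptide carrying a reactive thiol, is made from cysteine, most of which enters cultured cells as cystine. Thioredoxin is a small protein that reduces other proteins, peroxiredoxins among them, and is itself reduced with electrons from NADPH. Both systems remove peroxides and reactive chemicals, and many of their genes are controlled by the transcription factor NRF2, which binds antioxidant response elements in promoters and enhancers. Tumour cells with high aldehyde dehydrogenase activity have been described as well protected against oxidants.

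The promoter windows that hold an antioxidant response element core are shown first, since the members are known for control through it. The core of the antioxidant response element was searched as TGACNNNGC on both strands within 250 bases upstream of each RefSeq start site (GRCh38.p14). Promoter sequence was matched for 7 of the 10 genes, and 3 of these held the core: GCLM, GPX2 and TXNRD1. Over all 35116 promoters of the same length, 10.9% held it. That share is per promoter and not per gene. TXNRD1 had 2 promoters, each with the core, GPX4 had 3, and GCLC, GCLM, GPX2, TXN and SRXN1 had 1 each. The windows below run 5′ to 3′ on the strand of the gene, and the capitals mark the core, which stands in reverse complement in all but the first TXNRD1 window.
GCLM, chr1:93909445-93909474, minus strand: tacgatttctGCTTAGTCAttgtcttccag
GPX2, chr14:64942848-64942877, minus strand: acctgtttttGCTAAGTCAtcctggggatg
TXNRD1 first start site, chr12:104215670-104215699, plus strand: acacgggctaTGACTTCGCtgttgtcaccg
TXNRD1 second start site, chr12:104286920-104286949, plus strand: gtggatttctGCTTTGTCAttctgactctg
Counted in bases from the start site, the core lay at -34 in GCLM, at -122 in GPX2, and at -99 and -102 at the TXNRD1 starts. No match was found in this window for GCLC, GPX4, TXN or SRXN1, and SLC7A11, GSR and PRDX1 were not searched. A match is a description of letters, and binding was not measured here.

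In the GRCh38 annotation GCLC spans chr6:53497341-53545101, GCLM chr1:93885199-93909430, SLC7A11 chr4:138164097-138242349, GSR chr8:30678066-30727846 and GPX2 chr14:64939158-64942745. GPX4 spans chr19:1103994-1106779, TXN chr9:110243810-110256507, TXNRD1 chr12:104215779-104350307, SRXN1 chr20:646615-653200 and PRDX1 chr1:45511051-45522890. Counts are over whole genes, and how reads shared with an overlapping gene were handled is not given. Such overlaps exist for SLC7A11 (with SLC7A11-AS1), GPX2 (CHURC1-FNTB), TXNRD1 (EID3) and PRDX1 (MMACHC). RefSeq lists 7 pseudogenes of TXN, 1 of SRXN1 and 1 of PRDX1, none of which has a row in the count table, so the values of TXN in particular may depend on how near-identical copies were counted.

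Total counts ran from 30253187 to 43127948 per library. Marker genes matched the line labels: the 10 mesenchymal markers summed to 7728 to 9680 CPM (counts scaled to the effective library size) in SUM159 and to 471 to 937 CPM in SW620, and the 10 colon epithelial markers to 1887 to 2537 CPM in SW620. Of the colon markers, CDX1 and CDX2 were not above 1 CPM in SW620. The first of 2 libraries that stood apart was SUM159 ALDHbr DMSO replicate 3, where the colon markers reached 7.10 CPM against at most 2.61 CPM in the other 11 SUM159 libraries. Over 101 genes read almost only in SW620 it held 0.301% of their SW620 level, against 0.0144% to 0.0279% in the other 11. The second was SW620 ALDHbr DMSO replicate 2. Over 5483 genes that separated the other SW620 ALDHbr from ALDHneg libraries under DMSO, it lay 15.6% of the way from ALDHneg to ALDHbr, although its ALDH1A1 level, 1342 CPM, was close to that of replicates 1 and 3 (1440 and 1409 CPM) and above the 940 to 976 CPM of ALDHneg. The sorted groups also moved with treatment. SW620 ALDHbr NIF replicates 1, 2 and 3 lay at -1.93%, 24.9% and 66.7% of the same way, and SW620 ALDH1A1 was 980 to 1043 CPM under NIF in ALDHbr cells and 570 to 598 CPM in ALDHneg cells. The part of this shift in the SW620 results was not tested. Within each SW620 ALDHbr group the positions ran opposite to a library's trend with transcript length. The Spearman correlation of deviation from the group mean with length was 0.52, 0.17 and -0.56 in NIF replicates 1, 2 and 3. In DMSO replicates 1, 2 and 3 it was -0.49, 0.60 and -0.42. The part of transcript length in the positions was not tested. Calls that change without either library that stood apart are given with and without it.

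Levels differed between genes and lines before any drug was considered. Per kilobase of the canonical transcript, the order in SUM159 ALDHbr cells under DMSO ran from PRDX1, a peroxiredoxin that breaks down hydrogen peroxide, at 576 CPM per kb, through TXN (thioredoxin) at 302 CPM per kb and TXNRD1 (thioredoxin reductase) at 174 CPM per kb, down to GCLC, the catalytic subunit of glutamate-cysteine ligase, in ninth place at 7.09 CPM per kb, and GPX2 last at 0.823 CPM per kb. That GPX2 value came from replicate 3 alone, with 90 counts against 0 in replicates 1 and 2. In SW620 ALDHbr cells under DMSO, TXN led at 1280 CPM per kb, followed by PRDX1 at 1119 and GPX2 at 852 CPM per kb. SLC7A11 was lowest there at 7.17 CPM per kb. SLC7A11, the cystine transporter subunit of system xc-, thus stood sixth of 10 in one line and last in the other.

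GPX2, a glutathione peroxidase best known from the gut epithelium, was read almost only in the colon line. It had 24235 to 32579 counts in the 12 SW620 libraries and 0 or 1 count in 11 of the 12 SUM159 libraries. In SUM159 libraries without a count, the limit that 0 counts allows was 0.0696 to 0.0992 CPM. The exception was the SUM159 ALDHbr DMSO replicate 3 described above, with 90 counts, or 2.28 CPM. That is 0.290% of the mean SW620 ALDHbr DMSO level, and the median over the 101 SW620-read genes in this library was 0.294%. In ALDHneg cells under DMSO the 3 SW620 libraries together had 78576 counts and the 3 SUM159 libraries 1, a ratio of 83180 with a 95% counting interval of 14929 to 3285486. GPX2 did not pass the filter on low counts in SUM159, and its response there was not tested.

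The DMSO levels of the other genes were compared between lines in a fit of all 24 libraries, in which 81.3% of genes differed in ALDHbr cells (39.6% higher in SW620, 41.7% lower) and 81.2% in ALDHneg cells (38.5% higher, 42.7% lower). Against these shares, 8 of 10 members differed in ALDHbr cells (6 higher in SW620, 2 lower) and 7 of 10 in ALDHneg cells (6 higher, 1 lower). GPX2, among the 6, passed the low-count filter through its SW620 libraries alone and had to differ, so it adds nothing to these counts. Differing between the lines was common to most genes. GCLC was 25.4, 28.5 and 26.7 CPM in SUM159 and 152, 164 and 153 CPM in SW620 ALDHbr libraries under DMSO, without overlap and 5.84-fold higher in SW620 (log2 2.54 ± 0.07 SE, edgeR adjusted p = 3.36e-21). TXN was 4.24-fold higher and GSR, glutathione reductase, 3.26-fold higher in SW620 ALDHbr cells (edgeR adjusted p = 1.38e-15 and 1.09e-16). SLC7A11 went the other way, at 294, 314 and 339 CPM in SUM159 against 61.4, 91.3 and 54.8 CPM in SW620, a log2 difference of -2.19 ± 0.16 (edgeR adjusted p = 8.2e-12). For TXNRD1 the difference in ALDHbr cells was 0.06 on the log2 scale, with a 95% interval of -0.10 to 0.21, and for SRXN1, the sulfiredoxin that repairs overoxidised peroxiredoxins, it was -0.11 with an interval of -0.27 to 0.05. TXNRD1 and SRXN1 thus started from overlapping levels in the lines, although scaling by library size alone, which moves all genes, put SRXN1 lower in SW620 in ALDHbr and ALDHneg cells and TXNRD1 lower in ALDHneg cells.

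**Figure D1:**
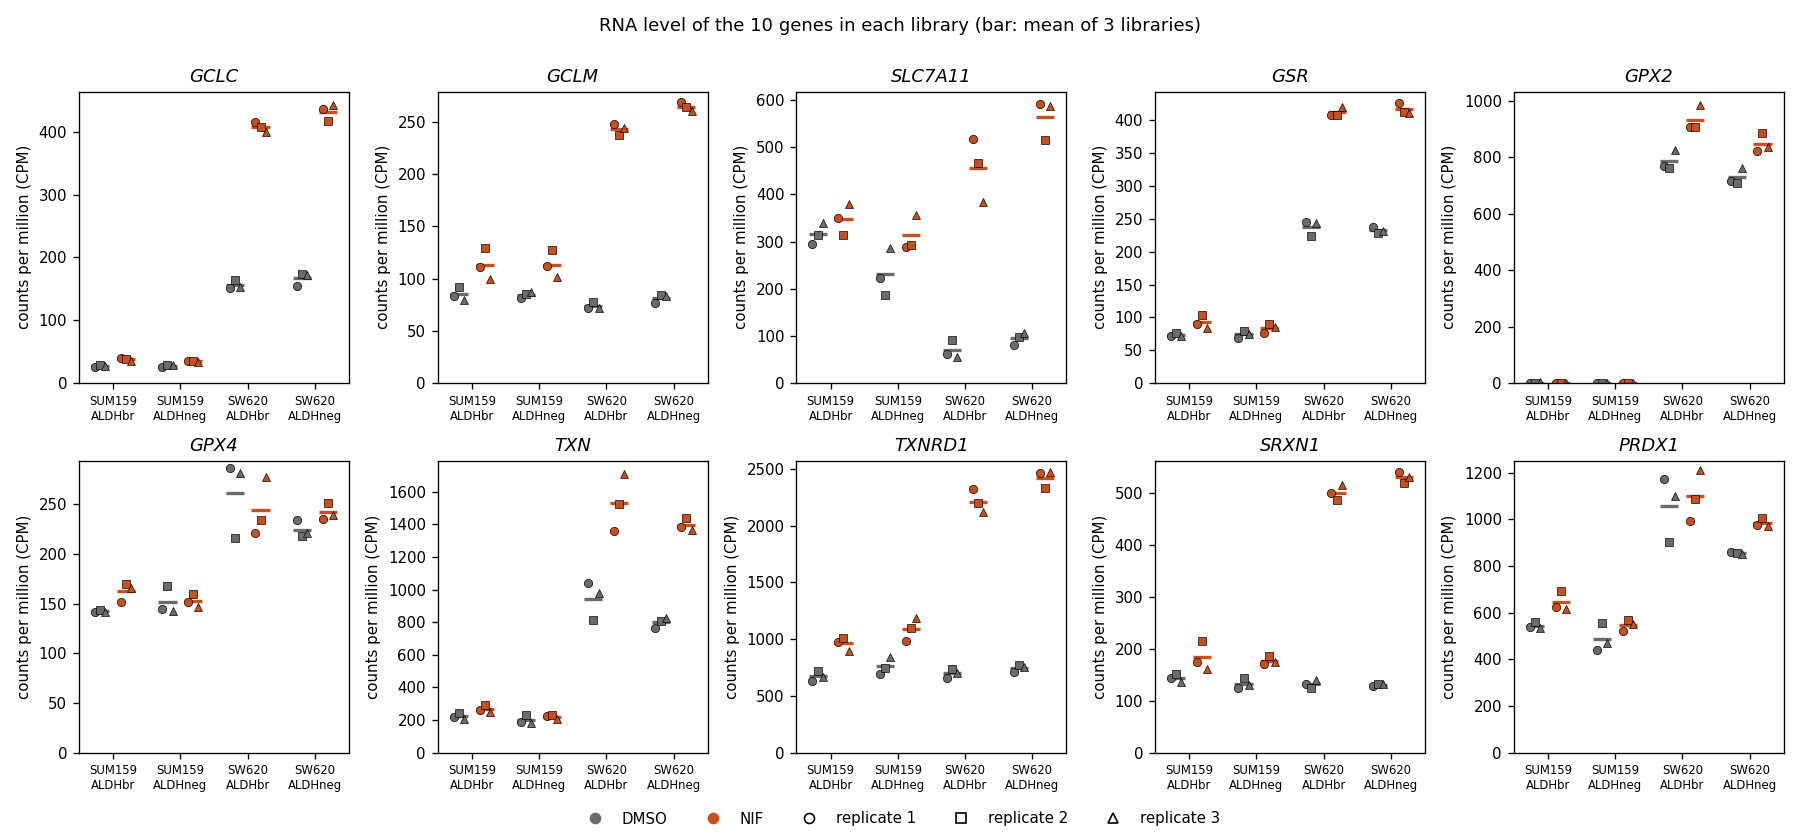
RNA level of each of the 10 genes (vertical axis, CPM, linear from 0) in the 8 groups, with grey points for DMSO, orange points for NIF, marker shapes for the replicate numbers and bars for the mean of 3 libraries. In SW620 the NIF libraries of GCLC, GCLM, SLC7A11, GSR, TXN, TXNRD1 and SRXN1 all lie above the DMSO libraries, GPX2 is near 0 in SUM159, and GPX4 and PRDX1 overlap between treatments in SW620 ALDHbr cells.

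In SUM159 cells the rises under NIF were small. In ALDHbr cells 5 of the 9 members tested were higher under NIF (GCLC, GCLM, GSR, TXNRD1 and SRXN1) and none was lower, where 0.936% of all 14953 genes tested were called higher and 3.16% were called in either direction. The median log2 fold change of the 9 members was 0.34, against 0.00 over all genes tested. The groups did not overlap, with NIF higher, for 8 of the 9, which held for 11.0% of all genes. In ALDHneg cells 4 of 9 were higher (GCLC, GCLM, TXNRD1 and SRXN1) and none lower, where 1.10% of genes were called higher and 3.30% in either direction, and the median of the 9 was 0.32. Groups did not overlap there, with NIF higher, for 5 of the 9 and for 9.65% of all genes. In bulk RNA of sorted cells, a change in the RNA per cell and a change in the make-up of the sorted cells cannot be told apart.

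Among the synthesis genes, GCLC was 39.1, 38.9 and 34.4 CPM under NIF and 25.4, 28.5 and 26.7 CPM under DMSO in SUM159 ALDHbr cells. Every NIF library was above every DMSO library, a 1.39-fold rise (log2 0.48 ± 0.07 SE, edgeR adjusted p = 0.0016). In ALDHneg cells it was 35.3, 34.4 and 33.8 CPM against 26.2, 28.3 and 28.1 CPM, again without overlap (1.25-fold, edgeR adjusted p = 0.0212). GCLM, the modifier subunit of the same ligase, rose 1.32-fold in ALDHbr cells and 1.34-fold in ALDHneg cells (edgeR adjusted p = 0.0327 and 0.025). SLC7A11 did not pass the test in either population: it was 350, 313 and 379 CPM under NIF against 294, 314 and 339 CPM in ALDHbr cells, where the groups overlapped (log2 0.13, 95% interval -0.14 to 0.41). In ALDHneg cells SLC7A11 was 289, 293 and 357 CPM against 223, 187 and 286 CPM, and these groups did not overlap (log2 0.43 ± 0.13, edgeR adjusted p = 0.0882).

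The reductases and the repair enzyme followed GCLC. TXNRD1 was 976, 1012 and 898 CPM under NIF against 633, 716 and 669 CPM under DMSO in SUM159 ALDHbr cells, 1.43-fold higher without overlap (log2 0.51 ± 0.09 SE, edgeR adjusted p = 0.00409). In ALDHneg cells its values were 980, 1101 and 1188 CPM against 694, 747 and 845 CPM, a fold change that was also 1.43 (edgeR adjusted p = 0.00439). GSR rose 1.26-fold in ALDHbr cells (edgeR adjusted p = 0.0387) and was 1.13-fold higher without passing the test in ALDHneg cells (edgeR adjusted p = 0.296). SRXN1 rose 1.28-fold and 1.33-fold in the 2 populations (edgeR adjusted p = 0.0491 and 0.0219).

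Same-numbered SUM159 libraries deviated together, so the replicate number was also used as a block, and the count of calls then grew to 8 of 9 in each population. Calls over all genes grew too: 13.3% of genes were called with the block in ALDHbr cells (5.77% higher) and 13.2% in ALDHneg cells (6.10% higher). With the replicate block GPX4, TXN and PRDX1 joined the genes higher in ALDHbr cells (edgeR adjusted p = 0.0135, 6.55e-04 and 0.00201). In ALDHneg cells SLC7A11, GSR, TXN and PRDX1 joined them with the block (edgeR adjusted p = 9.75e-05, 0.0355, 0.0377 and 0.0223). TXN was 264, 289 and 247 CPM under NIF and 221, 240 and 206 CPM under DMSO in ALDHbr cells, and PRDX1 623, 691 and 616 CPM against 537, 560 and 536 CPM. TXN was higher under NIF in 3 of 3 pairs, by 0.25 to 0.27 on the log2 scale, and PRDX1 in 3 of 3 by 0.20 to 0.30. GPX4, the peroxidase that reduces lipid peroxides within membranes, was the member without a call in ALDHneg cells under either fit (log2 0.01, 95% interval -0.13 to 0.15).

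The SUM159 calls were few libraries deep. Without ALDHbr DMSO replicate 3, the library with SW620-read genes, 2 members remained called in ALDHbr cells, where the genes called fell to 2.12% of all genes (0.461% higher): GCLC (log2 0.47, edgeR adjusted p = 0.00719) and TXNRD1 (log2 0.51, edgeR adjusted p = 0.0165). The log2 fold changes of GCLM, GSR and SRXN1 were then 0.36, 0.32 and 0.32 (edgeR adjusted p = 0.121, 0.121 and 0.155). A 0.294% share of SW620 RNA would make up 1.72% of the GCLC level in that library and at most 1.34% of that of any other member apart from GPX2. The count was also 2 without ALDHbr DMSO replicate 1 or NIF replicate 1 or 2, and 3 without DMSO replicate 2. In ALDHneg cells it was 1 without DMSO replicate 1 or NIF replicate 1, and 2 without NIF replicate 2 or 3. In these fits 1.46% to 2.12% of all genes were called in ALDHbr cells and 1.27% to 2.49% in ALDHneg cells. TXNRD1 was called in each of them. Without ALDHneg DMSO replicate 3, GCLM and SRXN1 lost their calls (edgeR adjusted p = 0.0538 and 0.0673) and SLC7A11 was called (edgeR adjusted p = 0.0104). None of the fits that left out a library used the replicate block.

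In SW620 the same genes rose further. Of the 10 members, 8 were higher under NIF and none was lower in ALDHbr cells, where 21.4% of the 13953 genes tested were called higher and 43.3% in either direction. The count was also 8 higher and none lower in ALDHneg cells, with 22.3% of genes called higher and 45.1% in either direction. The members' median log2 fold change was 1.08 in ALDHbr and 1.10 in ALDHneg cells, against -0.01 over all genes in each. NIF libraries all lay above DMSO libraries for 8 members in ALDHbr cells, against 22.5% of all genes, and for 9 in ALDHneg cells, against 31.5%. The 8 genes were the same in the 2 populations, and GPX4 and PRDX1 were those not called in either.

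SLC7A11 had the highest fold change of the 10. It was 518, 466 and 384 CPM under NIF and 61.4, 91.3 and 54.8 CPM under DMSO in SW620 ALDHbr cells. The lowest NIF library was thus far above the highest DMSO library, which was the replicate 2 that stood apart (6.59-fold, log2 2.72 ± 0.17 SE, edgeR adjusted p = 2.12e-08). Without that library the log2 fold change was 2.98 (edgeR adjusted p = 3.42e-11). In ALDHneg cells SLC7A11 was 591, 515 and 588 CPM against 81.1, 96.8 and 106 CPM, 5.93-fold higher (edgeR adjusted p = 2.87e-08). The SLC7A11 level in SUM159 under DMSO, 316 ± 22.2 CPM (SD, n = 3) in ALDHbr cells, lay between the SW620 levels under DMSO and under NIF.

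For the ligase, GCLC was 416, 407 and 400 CPM under NIF in SW620 ALDHbr cells against 152, 164 and 153 CPM under DMSO, and GCLM was 248, 237 and 244 CPM against 71.9, 77.3 and 72.0 CPM. Neither gene overlapped between the treatments. GCLC rose 2.60-fold (log2 1.38 ± 0.06 SE, edgeR adjusted p = 3.31e-10) and GCLM 3.29-fold (log2 1.72 ± 0.05, edgeR adjusted p = 2.14e-11). In ALDHneg cells the folds were 2.58 and 3.23 (edgeR adjusted p = 2.97e-10 and 1.98e-11).

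In the thioredoxin arm, SRXN1 was 499, 487 and 515 CPM under NIF and 133, 125 and 140 CPM under DMSO in SW620 ALDHbr cells. The NIF libraries lay close together and all far above DMSO (3.76-fold, log2 1.91 ± 0.05 SE, edgeR adjusted p = 9.53e-12). By p-value SRXN1 ranked sixth of all 13953 genes tested in ALDHbr and eighth in ALDHneg cells, where it rose 4.03-fold (edgeR adjusted p = 4.33e-12). TXNRD1 was 2319, 2199 and 2117 CPM against 661, 738 and 700 CPM in ALDHbr cells, 3.15-fold higher (edgeR adjusted p = 5.66e-11), and rose 3.23-fold in ALDHneg cells (edgeR adjusted p = 4.1e-11). TXN was 1362, 1527 and 1711 CPM against 1038, 811 and 980 CPM in ALDHbr cells, without overlap and 1.62-fold higher (edgeR adjusted p = 2.66e-05). Its rise in ALDHneg cells was 1.74-fold (edgeR adjusted p = 6.46e-06). Transcripts under 1 kb, TXN among them, deviated by a median of -0.12 in ALDHbr NIF replicate 1 and 0.14 in replicate 3 on the log2 scale, and the part of this in the TXN values was not tested.

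GSR rose 1.73-fold in ALDHbr and 1.78-fold in ALDHneg SW620 cells (edgeR adjusted p = 1.66e-08 and 7.88e-09), less than the ligase subunits. GPX2 was already high and rose least of the 8, from 769, 761 and 827 CPM under DMSO to 908, 905 and 983 CPM under NIF in ALDHbr cells. These groups did not overlap (1.18-fold, log2 0.24 ± 0.05 SE, edgeR adjusted p = 0.00238), nor did those of ALDHneg cells (1.16-fold, edgeR adjusted p = 0.00622). In the fit of all 24 libraries, where the near-empty SUM159 libraries share the estimate of spread, GPX2 was not called in either population. Its log2 fold changes there were 0.25 and 0.22. Like TXN, GPX2 has a canonical transcript under 1 kb (922 bases), and the part of transcript length in its values was not tested.

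GPX4 and PRDX1 were not called in SW620, although PRDX1 in ALDHneg cells was close to GPX2, called there at log2 0.21. PRDX1 was 994, 1088 and 1210 CPM under NIF and 1172, 902 and 1098 CPM under DMSO in SW620 ALDHbr cells, with wide overlap (log2 0.05, 95% interval -0.13 to 0.23). In ALDHneg cells it was 977, 1006 and 970 CPM against 860, 856 and 853 CPM, which did not overlap (log2 0.19 ± 0.09 SE, edgeR adjusted p = 0.0831). Fitted on those 6 libraries alone, or with no filter on low counts, PRDX1 was called higher there. GPX4 averaged 244 ± 29.3 CPM under NIF against 261 ± 38.7 CPM under DMSO (SD, n = 3) in ALDHbr cells, with overlap (log2 -0.10, 95% interval -0.31 to 0.11). Without DMSO replicate 2 it was called lower in ALDHbr cells (log2 -0.21, edgeR adjusted p = 0.0207), and PRDX1 changed sign to -0.04. Both genes have canonical transcripts under 1 kb. Such transcripts deviated by a median of 0.12, -0.20 and 0.08 on the log2 scale in ALDHbr DMSO replicates 1, 2 and 3. In ALDHbr NIF replicates 1, 2 and 3 they deviated by -0.12, -0.02 and 0.14. The part of this in the GPX4 and PRDX1 values was not tested. In ALDHneg cells the log2 fold change of GPX4 was 0.10, with an interval of -0.12 to 0.31, and GPX4 was called higher only in the fit of those 6 libraries alone.

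**Figure D2:**
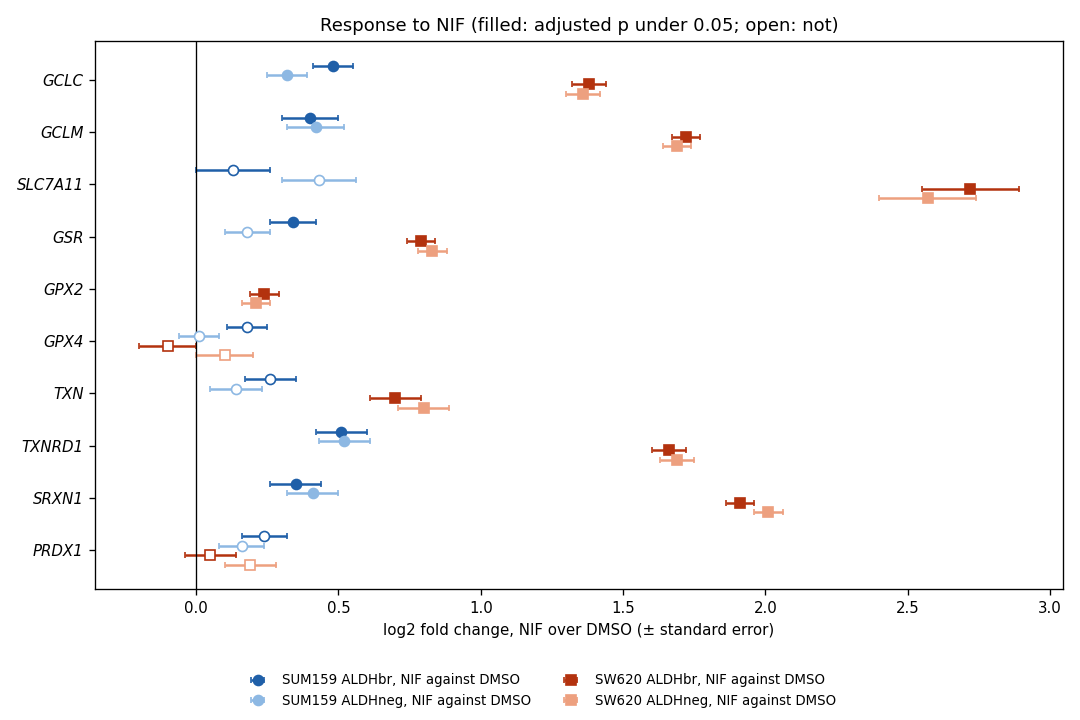
Log2 fold change of NIF over DMSO with its standard error (horizontal axis) for each gene, in the 2 populations of SUM159 (blue circles) and SW620 (red squares), darker for ALDHbr and lighter for ALDHneg, with filled symbols for an adjusted p under 0.05. SLC7A11 in SW620 lies farthest to the right at 2.72 and 2.57, GPX4 and PRDX1 have open symbols throughout, and in SUM159 no gene exceeds 0.52.

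The difference between the lines was tested itself, as the NIF effect in SW620 minus that in SUM159. In ALDHbr cells 8 of 10 members had the larger effect in SW620 and none the smaller, where 12.4% of the 16271 genes tested were called in that direction and 23.1% in either. Among the 8, GPX2 was called from the 90 counts in SUM159 ALDHbr DMSO replicate 3 and lost its call without that library. In ALDHneg cells 7 of 10 were larger in SW620, where 11.9% of genes were called in that direction and 22.4% in either. The line effect was largest among these 7 for SLC7A11, 2.58 ± 0.22 (SE) in ALDHbr and 2.14 ± 0.22 in ALDHneg cells on the log2 scale (edgeR adjusted p = 9e-09 and 1.27e-07). It was 1.56 and 1.60 for SRXN1, 1.31 and 1.28 for GCLM, 1.14 and 1.18 for TXNRD1, and 0.90 and 1.05 for GCLC, all with an edgeR adjusted p of at most 5.54e-08. GSR (0.45 and 0.66) and TXN (0.44 and 0.66) had smaller differences, and TXN in ALDHbr cells lost its call without SW620 ALDHbr DMSO replicate 2 (0.34, edgeR adjusted p = 0.0523) and without SUM159 ALDHbr DMSO replicate 2 (0.38, edgeR adjusted p = 0.0641). It was also lost when only the groups compared were fitted (0.44, edgeR adjusted p = 0.0509).

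For GPX4 and PRDX1 the line difference was -0.29 (95% interval -0.55 to -0.03, edgeR adjusted p = 0.108) and -0.19 (-0.44 to 0.06, edgeR adjusted p = 0.303) in ALDHbr cells. Without SW620 ALDHbr DMSO replicate 2 each was called smaller in SW620, at -0.41 (edgeR adjusted p = 0.00551) and -0.29 (edgeR adjusted p = 0.0482). GPX4 was also called smaller without SW620 ALDHbr NIF replicate 3, at -0.36, and with scaling by library size alone, at -0.31 (edgeR adjusted p = 0.0253 and 0.0416). The part of transcript length in these GPX4 and PRDX1 values was not tested. In ALDHneg cells the differences were 0.10 for GPX4 and 0.04 for PRDX1, with intervals of -0.16 to 0.36 and -0.22 to 0.29.

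Whether ALDHbr and ALDHneg cells respond differently is the comparison closest to the question of a drug acting on cancer stem cells. No member was called for such a difference. The SUM159 values are from the fit without the replicate block. There the NIF effect in ALDHbr minus that in ALDHneg was lowest for SLC7A11, at -0.30 (95% interval -0.68 to 0.09). It was highest for GPX4, at 0.18 (-0.02 to 0.37). In SW620 it ran from -0.20 for GPX4 (-0.50 to 0.10) to 0.15 for SLC7A11 (-0.33 to 0.64). Without ALDHbr DMSO replicate 2 these values were -0.31 (edgeR adjusted p = 0.138) and 0.41 (edgeR adjusted p = 0.196). Over all genes 0% were called in SUM159 and 0.00717% in SW620 by edgeR, and at an unadjusted p under 0.05 there were 0 members and 238 genes in SUM159, and 0 members and 771 genes in SW620. DESeq2 also called 0 members in each line. With the replicate block, 0 members and 6 of the 14953 genes tested were called in SUM159. The intervals of TXNRD1 were -0.27 to 0.26 in SUM159 and -0.20 to 0.14 in SW620, so differences of that size in its responses remain possible. At this depth and replication, the absence of a call does not show that the 2 populations respond alike.

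Under DMSO the populations differed in few members. In SUM159, ALDHbr cells had more SLC7A11, at 294, 314 and 339 CPM against 223, 187 and 286 CPM in ALDHneg cells, without overlap (1.36-fold, log2 0.44 ± 0.13 SE, edgeR adjusted p = 0.0219). It was the 1 member called of 9 tested, where 23.0% of genes were called in either direction and 10.7% were higher in ALDHbr cells. Without ALDHbr DMSO replicate 3 or ALDHneg DMSO replicate 1 the count was 0 (for SLC7A11, log2 0.39 with an edgeR adjusted p of 0.077, and 0.42), and without ALDHneg DMSO replicate 2 SLC7A11 was at 0.31 and uncalled while TXN and PRDX1 were called higher, each at 0.26. With the replicate block SLC7A11 kept its call (log2 0.46, edgeR adjusted p = 9.24e-06) and 3 more were called, for 4 of 9 where 36.0% of all genes were called: TXN and PRDX1 higher and TXNRD1 lower in ALDHbr cells, at 0.15, 0.16 and -0.18 (edgeR adjusted p = 0.013, 0.0101 and 0.0279).

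In SW620 under DMSO the 1 member called of 10 was PRDX1, 1172, 902 and 1098 CPM in ALDHbr against 860, 856 and 853 CPM in ALDHneg cells (1.23-fold, log2 0.30 ± 0.09 SE, edgeR adjusted p = 0.0379), where 11.3% of genes were called in either direction and 5.45% were higher in ALDHbr cells. That call was lost on leaving out ALDHbr DMSO replicate 1 or 3 or any ALDHneg DMSO replicate (log2 0.22 to 0.29), where 5.03% to 5.45% of all genes were called. Leaving out replicate 2 of the ALDHbr group changed the count most, to 6 of 10 members called, where 38.8% of all genes were then called (18.6% higher, 20.2% lower). GPX4, TXN and PRDX1 were then higher in ALDHbr cells (log2 0.32, 0.32 and 0.39; edgeR adjusted p = 0.00217, 0.00182 and 2.17e-04), and GCLM, SLC7A11 and TXNRD1 lower (-0.19, -0.72 and -0.15; edgeR adjusted p = 0.0127, 4.94e-04 and 0.0439). In that library SLC7A11, at 91.3 CPM, and TXN, at 811 CPM, lay within the ALDHneg range. Its transcripts under 1 kb were low, with a median deviation from the group mean of -0.20 on the log2 scale over 1020 genes, against 0.12 and 0.08 in replicates 1 and 3. TXN, GPX4 and PRDX1 have canonical transcripts of 737, 851 and 945 bases, and the part of transcript length in these values was not tested.

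**Figure D3:**
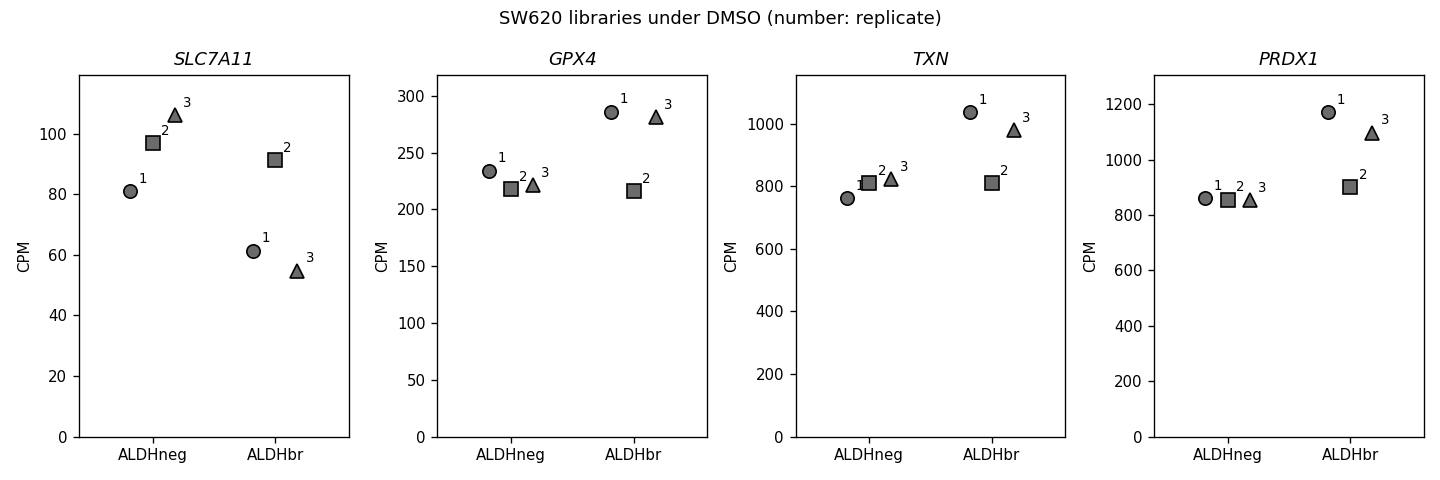
Level of SLC7A11, GPX4, TXN and PRDX1 (vertical axis, CPM from 0) in the 6 SW620 libraries under DMSO, each point labelled with its replicate number. ALDHbr replicate 2 lies nearer to the ALDHneg libraries than ALDHbr replicates 1 and 3 do in all 4 panels, for example at 811 CPM for TXN against 1038 and 980 CPM.

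The other genes of these pathways did not move as a block. A list of 55 further genes for glutathione synthesis and breakdown, glutathione peroxidases, glutaredoxins, glutathione transferases, the thioredoxin system, peroxiredoxins with sestrins, and superoxide dismutases with catalase held 44 tested genes in each line. In SUM159, 1 rose and 2 fell in ALDHbr cells and 1 rose and 1 fell in ALDHneg cells, where 2.23% and 2.20% of all genes fell, and the list's median log2 fold change was 0.05 and 0.01. In SW620, 15 rose and 15 fell in ALDHbr cells and 13 rose and 10 fell in ALDHneg cells, with medians of -0.03 and 0.03. The shares called, 68.2% and 52.3%, stood beside 43.3% and 45.1% over all genes, with 21.9% and 22.7% of all genes lower.

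Among the called genes of the list at a mean log2 CPM of at least 1, CHAC1 had the highest fold change in all 4 comparisons. CHAC1 is an enzyme that degrades glutathione. It was 48.9 ± 3.70 CPM under NIF against 4.31 ± 0.661 CPM (SD, n = 3) in SW620 ALDHbr cells (log2 3.50 ± 0.12 SE, edgeR adjusted p = 4.21e-11), and 8.84 ± 2.60 against 4.57 ± 0.256 CPM in SUM159 ALDHbr cells (log2 0.95 ± 0.22, edgeR adjusted p = 0.0284). In ALDHneg cells it rose by 3.31 in SW620 and 0.82 in SUM159 on the log2 scale (edgeR adjusted p = 4.1e-11 and 0.0378). SOD2, the mitochondrial superoxide dismutase, had the lowest called fold change in SUM159 at a mean log2 CPM of at least 1, at 423 ± 27.7 against 666 ± 101 CPM in ALDHbr cells (log2 -0.66 ± 0.12, edgeR adjusted p = 0.00635), with -0.65 in ALDHneg cells (edgeR adjusted p = 0.00798). The second gene that fell in SUM159 ALDHbr cells, named after its value was seen, was the weakly expressed GGT5 (log2 -1.81 ± 0.46, edgeR adjusted p = 0.0469).

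In SW620 the lowest called fold change at a mean log2 CPM of at least 1 belonged to SESN1, a sestrin, in ALDHbr cells (log2 -0.96 ± 0.09 SE, edgeR adjusted p = 2.05e-06). In ALDHneg cells it belonged to CAT, catalase, at 31.3 ± 0.788 against 65.0 ± 2.26 CPM (log2 -1.06 ± 0.05, edgeR adjusted p = 1.82e-09). By subgroup, the glutathione synthesis and breakdown genes held 5 higher and 3 lower of 9 tested in ALDHbr cells and 4 higher and 2 lower in ALDHneg cells. None of the 6 further thioredoxin system genes was higher in either population, with 3 lower in ALDHbr and 1 lower in ALDHneg cells. The 8 peroxiredoxins and sestrins held 2 higher and 4 lower in each. Of the 3 further glutathione peroxidases tested, 2 were higher in each population and 1 was lower in ALDHbr cells, with median log2 fold changes of 1.07 and 1.40. The 4 glutaredoxins held 2 higher and 1 lower in each, and the 10 glutathione transferases 4 higher and 1 lower in ALDHbr and 3 higher in ALDHneg cells. None of the 4 superoxide dismutase and catalase genes was higher, and 2 were lower in each. Over all SW620 genes tested, 21.4% were called higher and 21.9% lower in ALDHbr cells, and 22.3% and 22.7% in ALDHneg cells. The subgroups are small, and several of their counts lie near these shares. The peroxiredoxins and sestrins called in ALDHbr cells, like the genes that follow named after their values were seen, were PRDX5 and SESN2 higher (log2 0.35 and 1.48) and PRDX2, PRDX3, PRDX6 and SESN1 lower. PRDX2, PRDX3 and PRDX6 fell by 0.50, 0.39 and 0.30 on the log2 scale (edgeR adjusted p = 5.53e-04, 1.42e-04 and 0.00465). SLC3A2, the partner chain of SLC7A11 in the cystine transporter, rose by 1.34, and OPLAH, the oxoprolinase that returns oxoproline to glutamate, by 1.58 (edgeR adjusted p = 1.72e-09 and 1.16e-07).

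**Figure D4:**
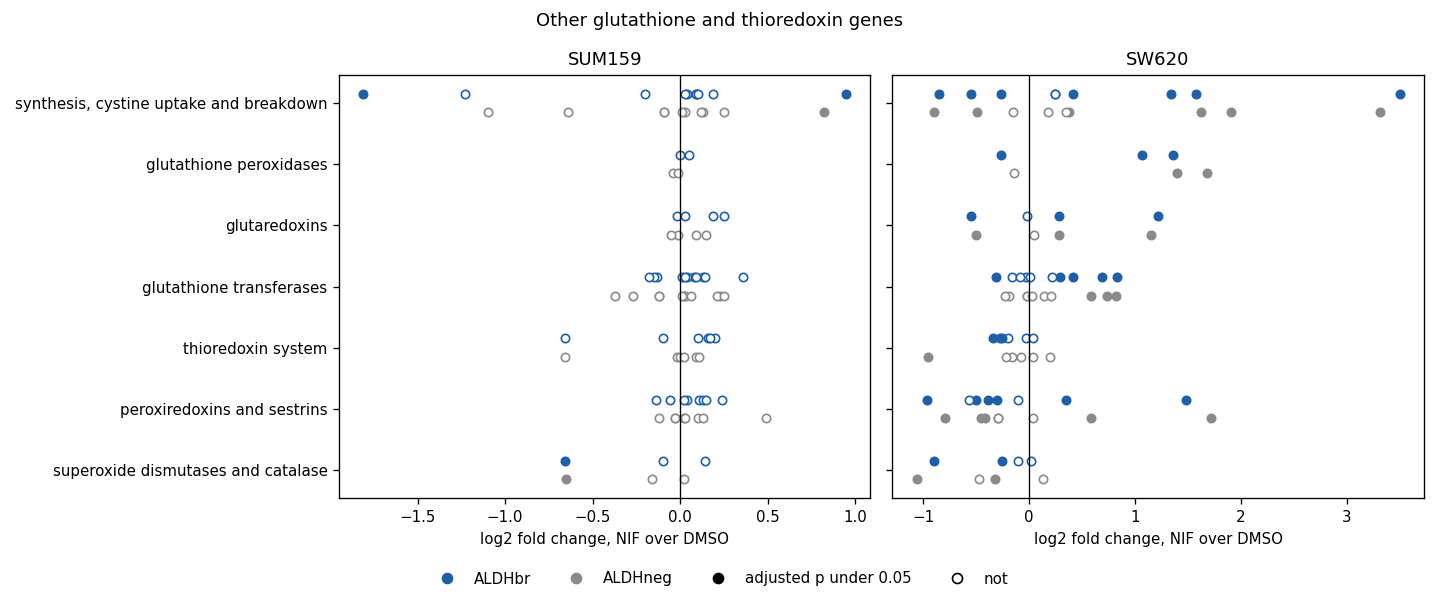
Log2 fold change of NIF over DMSO (horizontal axis) for the further glutathione and thioredoxin genes, grouped by role, in SUM159 (left) and SW620 (right), with blue for ALDHbr, grey for ALDHneg and filled points for an adjusted p under 0.05. The horizontal scales of the 2 panels differ. In SW620 15 points are called higher and 15 lower in ALDHbr cells, and CHAC1 lies farthest to the right at 3.50 and 3.31.

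Across the 24 libraries the members did not form a single pattern. Over the 9 members tested in both lines, each gene was centred within its line and divided by its SD over the 24 libraries. For most members the larger NIF changes in SW620 thus weigh more in the correlations than those in SUM159. The correlation of a member with the mean of the other members was 0.98 for GSR, 0.96 for TXN and SRXN1 and 0.94 for GCLC. For GCLM, TXNRD1 and SLC7A11 it was 0.93, 0.91 and 0.83. It was 0.51 for PRDX1 and 0.21 for GPX4. Outside the members and the pathway list, the genes closest to the members' mean profile among 10113 included FTL and FTH1, the light and heavy chains of the iron store ferritin, EIF1, a translation initiation factor, and ME1, an enzyme that produces NADPH. Their correlations were 0.98, 0.98, 0.98 and 0.97 over 24 libraries that share treatment, line and depth, and they describe likeness only.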

How the data were processed

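Total RNA of sorted cells was sequenced as stranded total RNA libraries. What the authors deposited is a table of whole-number counts for every gene and library, without normalization. FastQC and STAR and the build GRCh38 are named in the submitters' processing notes, and the counting tool, its strand setting and the annotation are not given in the sources used here. Rows without an Entrez number (234 of 28307) were kept under their symbol.

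Tests used edgeR 4.0.16 (R 4.3.3). Each line was fitted on 12 libraries in 4 groups after filterByExpr and TMM normalization, and the lines were compared in a fit of all 24 libraries. Quasi-likelihood F tests were adjusted by Benjamini-Hochberg over all genes tested, with a threshold of 0.05. Printed CPM values use TMM factors over 24 libraries, and a prior count of 2 was added before logs. Errors of fold changes are standard errors and other errors SDs of 3 libraries. Intervals are 95% and unadjusted, and the GPX2 count interval and limit (3 counts) cover counting error only. Transcript lengths are from GENCODE. The scripts were tested on simulated data.

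Replicate numbers come from the sample titles. In SUM159 same-numbered libraries deviated together in 18 of 18 pairs (correlation 0.126 to 0.452), so block values are given. In SW620 they did so in 1 of 18. Within groups, all 24 library pairs differed by more than counting noise (chi-square divided by genes, 1.97 to 46.1).

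All 10 members were named, with the highest and lowest called gene of the pathway list in each NIF comparison, if its average log2 CPM reached 1, and the 5 genes most like the members, of which 1 is not reported here. The members and lists were chosen with earlier results of these data known. Alternatives were DESeq2 1.42.0, other normalizations and filters, a minimum log2 fold change of 1, the block, other sets of libraries, and each library left out.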

Additional observations from a re-analysis of the deposited data

Results flagged for a closer look

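The effect of NIF differed between the lines by its own test (edgeR, 24 libraries) for 8 members in ALDHbr cells. The log2 effect in SW620 minus that in SUM159 was 0.90 for GCLC, 1.31 for GCLM, 2.58 for SLC7A11, 0.45 for GSR, 0.44 for TXN, 1.14 for TXNRD1 and 1.56 for SRXN1. For GPX2 the fitted value was 5.59, and it rested on 90 counts in SUM159 ALDHbr DMSO replicate 3. A fitted value for a gene with 0 or 1 count in the other SUM159 libraries depends on the fit and is no bound.

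In ALDHneg cells the same difference was 1.05 for GCLC, 1.28 for GCLM, 2.14 for SLC7A11, 0.66 for GSR, 0.66 for TXN, 1.18 for TXNRD1 and 1.60 for SRXN1. The cause of these differences was not tested, and line and experiment cannot be told apart. Groups of 3 libraries are too small for a test of single outlying values.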

How the results depend on the processing

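Requiring an absolute log2 fold change of at least 1 left 0 members called for NIF in either SUM159 population, 5 in each SW620 population, 0 for ALDHbr against ALDHneg under DMSO in either line, 5 for the line difference of the NIF effect in ALDHbr cells and 5 for the DMSO levels of the lines in ALDHbr cells. Over all genes this left 0.455% and 0.428% (SUM159 ALDHbr and ALDHneg), 5.71% and 6.74% (SW620 ALDHbr and ALDHneg), 5.70% and 1.02% (SUM159 and SW620 populations), 4.57% (line difference) and 45.0% (DMSO levels of the lines). GPX2 was among the 5 for the line difference, through the 90 counts in SUM159 ALDHbr DMSO replicate 3. It was also among the 5 for the DMSO levels, having passed the low-count filter through its SW620 libraries alone. The replicate block gave 8 and 8 members for NIF in SUM159 and 4 for the SUM159 populations under DMSO. In SW620, where the numbers did not pair the libraries, the block gave 0 for the populations under DMSO (8.19% of all genes). That SW620 comparison, with 1 call, had 2 by DESeq2 (2174 genes in all), 2 with no filter (8.60% of genes) and 0 with only the groups compared (5.38%). The SUM159 comparison had 2 with all 24 libraries (22.6%) and 2 with no filter (15.1%). The member gained in each was GPX2, which rested on the 90 counts in SUM159 ALDHbr DMSO replicate 3.

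With single libraries left out, the members called ranged from 2 to 5 (SUM159 ALDHbr, NIF), 1 to 5 (SUM159 ALDHneg, NIF), 0 to 2 (SUM159 populations, DMSO) and 0 to 6 (SW620 populations, DMSO). They ranged from 8 to 9 and stayed at 8 for NIF in SW620 ALDHbr and ALDHneg cells. For the line difference they ranged from 7 to 9 and stayed at 7. Over all genes, 222 to 322 and 192 to 584 were called for NIF in SUM159 ALDHbr and ALDHneg cells. Between populations under DMSO it was 2543 to 3136 in SUM159 and 712 to 5487 in SW620. It was 5053 to 7136 and 5352 to 5490 for NIF in SW620, and 3111 to 4641 and 3133 to 3642 for the line difference. With no library left out, 14953, 13953 and 16271 genes were tested in SUM159, SW620 and both lines. A group left with 2 libraries is assumed to vary like the others.

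With GPX2 aside, signs turned only for log2 values within 0.07 of 0. Scaling by library size alone gave -0.02 for GCLM between SUM159 populations under DMSO, -0.09 for TXNRD1 between lines in ALDHbr cells under DMSO, and -0.03 for the PRDX1 line difference in ALDHneg cells. The GPX2 line difference in ALDHneg cells was -0.06 with the replicate block. With single libraries left out, the NIF effect ran from -0.03 to 0.08 for GPX4 in SUM159 ALDHneg cells and from -0.04 to 0.13 for PRDX1 in SW620 ALDHbr cells. The ALDHbr minus ALDHneg difference of that effect ran from -0.12 to 0.07 (GCLM), -0.19 to 0.03 (SRXN1) and -0.02 to 0.14 (PRDX1) in SUM159, and from -0.02 to 0.07 (GCLC) and -0.07 to 0.01 (TXNRD1) in SW620. Between populations under DMSO it was -0.05 to 0.06 (GCLM) and -0.08 to 0.02 (GSR) in SUM159 and -0.02 to 0.05 (SRXN1) in SW620. Between lines under DMSO it was -0.02 to 0.10 for TXNRD1 in ALDHbr cells, and -0.11 to 0.04 (TXNRD1) and -0.08 to 0.04 (SRXN1) in ALDHneg cells. The line difference of the NIF effect ran from -2.34 to 6.17 for GPX2 in ALDHbr cells, and from -1.58 to 2.04 (GPX2) and -0.06 to 0.11 (PRDX1) in ALDHneg cells. The cause of these changes was not tested.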
